A study of Mus musculus with 9 samples.

Results

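The T-box factors of the lung and limb fields are taken here as 6 mouse genes, Tbx2, Tbx3, Tbx4, Tbx5, Tbx6 and Eomes, and were followed in the embryonic mid-foregut over the stages at which the lung buds are induced. Every probe set, the group of short probes that reports 1 transcript on the array, that the platform annotation gives 1 of these symbols was taken, which found 9 of the 20380 probe sets with 1 gene symbol, and 6 of 12393 genes. The tissue, from wild-type embryos, was the stretch of gut between the arches of the pharynx and the liver bud, with the heart and neural tube taken off. Embryos were staged by somites, the paired blocks of mesoderm added in turn along the body axis: 16-20 somites (embryonic day 8.5), 21-25 somites (day 9.0) and 26-30 somites (day 9.5). Each stage had 3 biological replicates with an array each, made from pools of 5 to 10 foreguts, so that p-values measure the spread between pooled samples and not between embryos. No mutant, treated or vehicle group was included, and every comparison is between stages of normal development.

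T-box proteins bind DNA through a conserved domain, the T-box, and switch target genes on or off. Tbx4 and Tbx5 are activators of the lateral plate mesoderm, known from mouse genetics for roles in the limb and lung buds. There they act on Fgf10 and Wnt signals, and Tbx5 is also a factor of the heart. Tbx2 and Tbx3 are mainly repressors, known in the lung mesenchyme and in the heart. Tbx6 is a factor of the presomitic mesoderm, from which somites form, and Eomes is known for mesoderm and endoderm formation at gastrulation. The pairs Tbx2 and Tbx4, and Tbx3 and Tbx5, are direct neighbours among protein-coding genes in the RefSeq gene table of GRCm38.p6, on chromosomes 11 and 5.

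Signals are MAS5 intensities on a linear scale, and differences are on the log2(signal + 26.1) scale, which understates those of dim probe sets. Of the 9 probe sets, 5 had a mean log2 value at or above 6.30, the 30th percentile of probe sets with 1 symbol, and were tested among 14266: 1 each of Tbx2, Tbx3, Tbx5, Tbx6 and Eomes. The other probe sets of Tbx3, Tbx5 and Eomes, and the only one of Tbx4, fell below that level. Eomes had its promoter in the RefSeq promoter table, as did Tbx4 and Tbx6, so 3 of 6 members matched. The Eomes and Tbx6 promoters are shown because both genes have a tested probe set, with stage differences far apart in size. Each window runs from 250 bases before to 50 after the annotated start, and capitals mark TATAA, the letters of a TATA box, on the coding strand.
Eomes promoter, GRCm38.p6 chr9:118477939-118478238, strand +: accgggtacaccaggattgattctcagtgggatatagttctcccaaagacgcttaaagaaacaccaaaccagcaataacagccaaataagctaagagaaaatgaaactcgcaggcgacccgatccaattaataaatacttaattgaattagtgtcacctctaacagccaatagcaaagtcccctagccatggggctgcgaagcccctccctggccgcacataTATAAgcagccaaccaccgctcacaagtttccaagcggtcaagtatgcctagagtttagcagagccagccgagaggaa
Tbx6 promoter, GRCm38.p6 chr7:126781233-126781532, strand +: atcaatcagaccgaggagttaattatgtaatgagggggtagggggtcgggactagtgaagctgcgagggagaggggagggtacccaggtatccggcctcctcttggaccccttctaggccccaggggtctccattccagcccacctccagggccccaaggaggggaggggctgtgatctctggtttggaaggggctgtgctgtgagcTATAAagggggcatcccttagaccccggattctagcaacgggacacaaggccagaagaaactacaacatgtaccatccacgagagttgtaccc
These letters begin 28 bases before the start in Eomes and 43 before it in Tbx6, and were searched on both strands. Of all 32851 windows of this length, 24.9% hold TATAA on at least 1 strand and 17.5% hold it on the coding strand. GGTGTG, the core of a T-box half-site, was not among the letters of either window on either strand, nor of the Tbx4 window, and 19.0% of all windows hold it. The Eomes window had 47.3% G and C, and the Tbx6 window 57.7%.

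Arrays of 1 stage differed among themselves, and this bears on every value below. The highest signal of 21-25 somites replicate 1 and of 26-30 somites replicates 1 and 2 lay between 27479.8 and 32583.5, against 43791.6 to 61749.1 on the other 6, and these 3 are called narrow-range arrays. In 16-20 somites replicate 2 the hepatic marker Ttr and the cardiac marker Myh6 had signals of 21558.6 and 5246.8, where the other 8 arrays had at most 2185.4 and 1944.8. The actin probe set at the 3' end over that at the 5' end, a measure of RNA length, was 45.3 in 21-25 somites replicate 2 and 20.9 to 36.8 elsewhere. The same ratio for Gapdh was 40.9 in 26-30 somites replicate 3, 36.4 in 21-25 somites replicate 2 and 16 to 26 on the other 7 arrays. Markers of the labelled tissue were counted. Of 17 foregut epithelium genes on the array 15 passed the filter, with Foxa1 and Foxa2, pioneer factors of endoderm, among them. The filter passed 14266 of 20380 probe sets, and with them 18 of 21 cardiac, 8 of 8 primitive erythroid and 10 of 15 hepatic genes. Passing it therefore cannot tell foregut from other tissue. Nkx2-1, the factor of the lung and thyroid fields, and Shh did not pass, with highest signals of 98.6 and 38.3.

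The widest comparison, of 26-30 with 16-20 somites, had larger signals of Tbx5, Eomes and Tbx2 at the later stage, with the 3 later arrays wholly above the 3 earlier ones in each, while Tbx3 and Tbx6 overlapped. The log2 differences were 1.24 for Tbx5, 1.11 for Eomes and 0.63 for Tbx2. Of the 9 probe sets, 3 were wholly apart in this way, all higher, against 10.9% of the 14266 tested probe sets and 8.93% of the 20380 before the filter. Without the 3 narrow-range arrays 5 of the 9 lay wholly above, these 3 with Tbx4 and the dim Tbx5 probe set, as did 22.6% of the 20380. Without 16-20 somites replicate 2 it was 4 of the 9, these 3 with Tbx3, as did 14.6% of the 20380. None of the 5 tested passed. In limma, 0 of 14266 probe sets, or 0%, had an adjusted p under 0.05, with a smallest adjusted p of 0.189, while 1485, or 10.4%, had an unadjusted p under 0.05. Of the 5 T-box probe sets 3 did, those of Tbx5, Eomes and Tbx2, all higher, where 5.95% of all tested were higher at that level. The 6 members were chosen with earlier results of these data known. Counts of members beside shares of all probe sets, here and below, are therefore a description and not a test. The median log2 difference over the 5 tested was 0.63, against 0.02 over all probe sets tested, but dim members drop out by their mean level and the 5 do not stand for all 9. In pooled tissue, more cells of a type and more RNA per cell cannot be told apart.

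**Figure D1:**
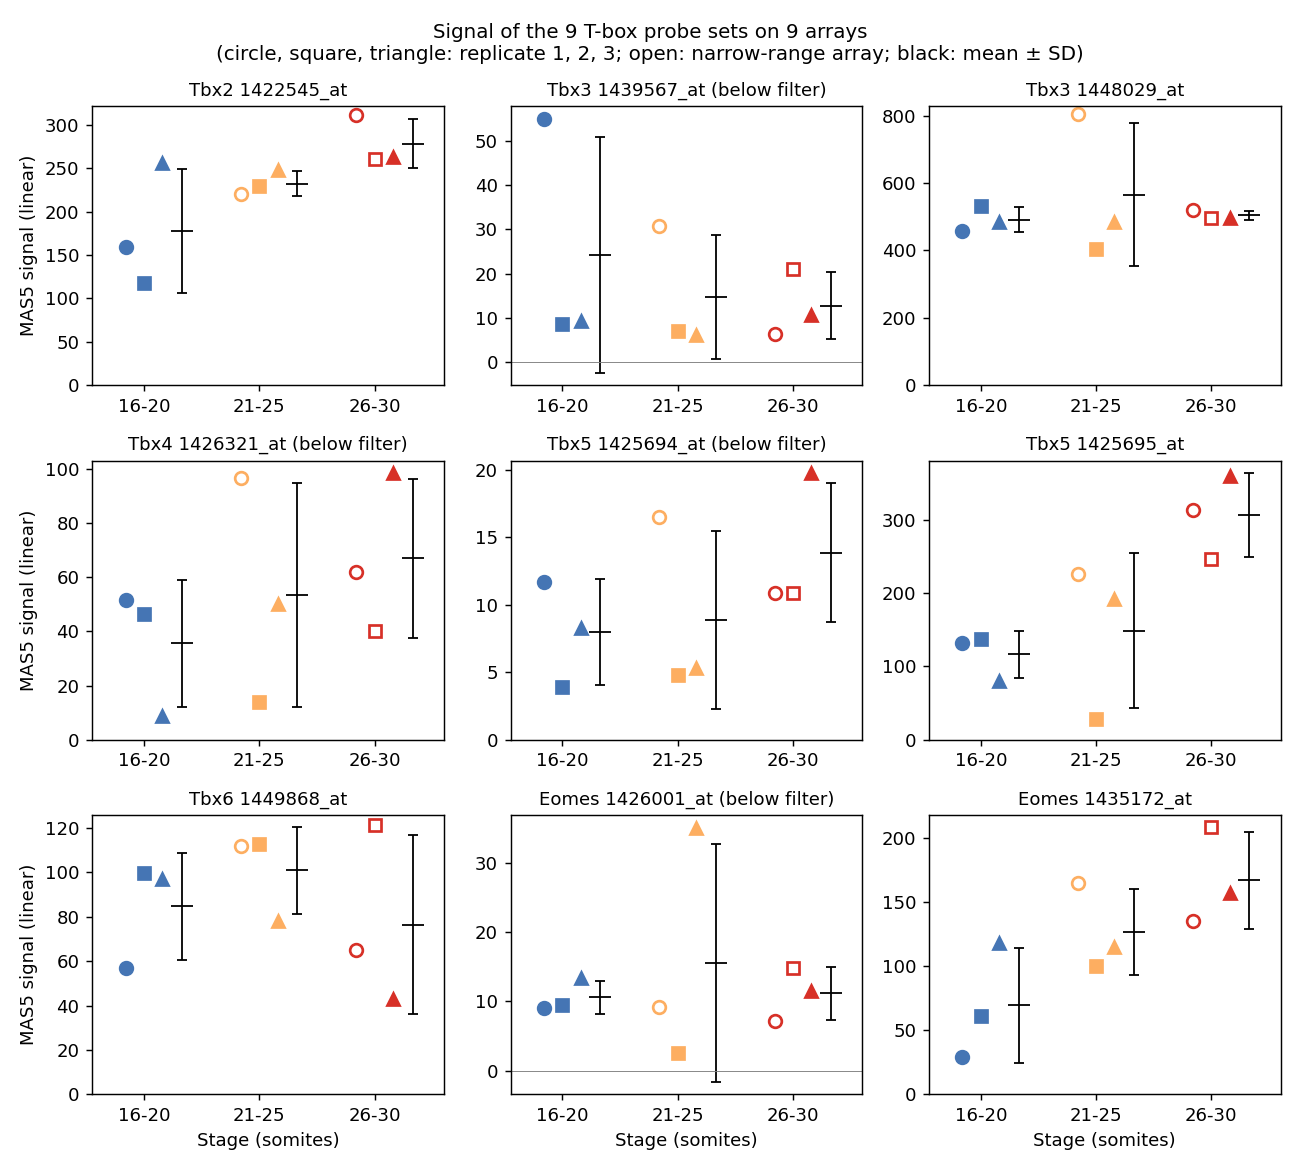
MAS5 signal (linear scale) of the 9 T-box probe sets in each of the 3 arrays of 16-20, 21-25 and 26-30 somites; symbols stand for the replicates, open symbols for narrow-range arrays, and the black mark is the mean with its SD. Tbx5 1425695_at, Eomes 1435172_at and Tbx2 1422545_at have all 3 arrays of 26-30 somites above those of 16-20 somites, and 4 probe sets lie below the filter.

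Tbx5, the activator of the heart, forelimb and lung fields, had the widest difference. Its probe set 1425695_at had signals of 132.5, 136.7 and 79.6 at 16-20 somites, 225.3, 27.9 and 192.2 at 21-25 somites, and 313, 246.2 and 359.8 at 26-30 somites. The last stage was above every array of the earlier stages, and 21-25 somites replicate 2 held the lowest signal of all 9. Of the arrays with the highest end ratios, 26-30 somites replicate 3, highest for Gapdh, had the highest Tbx5 signal. The lowest was in 21-25 somites replicate 2, which was high for both actin (45.3) and Gapdh (36.4). The part of RNA quality in these signals was not tested. The mean was 306 ± 57.1 at 26-30 and 116 ± 31.8 at 16-20 somites (SD, n = 3 each), a log2 difference of 1.24 ± 0.48 (SE; 95% interval 0.19 to 2.28). Its adjusted p in limma was 0.424. Nearly all of this lay in the second step: 26-30 against 21-25 somites gave 1.20 ± 0.48 (adjusted p 0.998 in limma), and 21-25 against 16-20 somites gave 0.04 ± 0.48 (adjusted p 0.987).

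That split between steps rested on single arrays. Without 21-25 somites replicate 2 the first step was 0.75 and the second 0.49 on the log2 scale, and without 21-25 somites replicate 1, a narrow-range array, they were -0.36 and 1.6. The test of the second step minus the first gave 1.16 ± 0.83, with an adjusted p of 0.925 in limma. The whole interval depended less on which array was left out, from 1.03 without 16-20 somites replicate 3 to 1.37 without 26-30 somites replicate 2. Of the arrays at 26-30 somites, the one with a wide range, replicate 3, had the highest Tbx5 signal. Without the 3 narrow-range arrays the log2 difference was 1.47, with an adjusted p of 1 in limma and only 1 array left at the last stage. With array weights, which give noisier arrays less say, Tbx5 passed in limma, with a log2 difference of 1.33 and an adjusted p of 0.0395, beside 597 probe sets called over the whole table. Over all alternatives for this comparison its adjusted p ran from 0.0395 to 1.

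The other Tbx5 probe set, 1425694_at, was dim, with signals of 3.9 to 11.7 at 16-20, 4.8 to 16.5 at 21-25 and 10.9 to 19.8 at 26-30 somites. These ranges overlapped, and its log2 difference of 26-30 against 16-20 somites was 0.23. The Pearson correlation between both Tbx5 probe sets was 0.65 over the 9 arrays, whose points share array and RNA quality.

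Tbx4, the partner of Tbx5 in the lung mesenchyme and the factor of the hindlimb field, was dim throughout. Probe set 1426321_at had signals of 51.6, 46.3 and 8.6 at 16-20 somites, 96.4, 13.8 and 50.1 at 21-25 somites, and 62, 40.2 and 98.4 at 26-30 somites. All 3 stages overlapped, and the lowest signal of 21-25 somites was again in replicate 2. The log2 difference of 26-30 against 16-20 somites was 0.63, and without the filter on dim probe sets limma gave it an SE of 0.45 and an adjusted p of 0.674. Across the 9 arrays Tbx4 and the brighter Tbx5 probe set had a Pearson correlation of 0.83 in log2 values, the highest of the 36 pairs of T-box probe sets. These points share array and RNA quality. In 21-25 somites replicate 2, with an actin ratio of 45.3, the signals were 13.8 and 27.9. In 26-30 somites replicate 3, with a Gapdh ratio of 40.9, they were 98.4 and 359.8. The part of RNA quality in this correlation was not tested.

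Tbx2, a repressor known to keep lung mesenchyme and other embryonic cells dividing, had a smaller difference. Probe set 1422545_at had signals of 159, 117.6 and 256.4 at 16-20 somites, 219.9, 229.7 and 247.6 at 21-25 somites, and 311.3, 260.6 and 263.5 at 26-30 somites. The last stage lay above both earlier ones, but by little: 260.6, its lowest, stood beside 256.4 in 16-20 somites replicate 3. The mean was 278 ± 28.5 at 26-30 and 178 ± 71.3 at 16-20 somites (SD, n = 3 each), and the log2 difference was 0.63 ± 0.26 (SE; 95% interval 0.07 to 1.20), with an adjusted p of 0.438 in limma. The log2 difference was 0.41 without 16-20 somites replicate 2, on which cardiac and hepatic markers were high, and without replicate 3 of that stage it was 0.90. The steps gave 0.40 ± 0.26 for 21-25 against 16-20 somites and 0.23 ± 0.26 for 26-30 against 21-25 somites, with adjusted p of 0.633 and 0.998 in limma.

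Tbx3, the close relative of Tbx2, had nearly equal means at the first and last stage. Probe set 1448029_at had signals of 458.7, 531.6 and 483.6 at 16-20 somites, 805, 404.8 and 484 at 21-25 somites, and 520.4, 496.2 and 494.8 at 26-30 somites. A single array, 21-25 somites replicate 1, stood above the rest, and the other 8 lay between 404.8 and 531.6. The mean was 504 ± 14.4 at 26-30 and 491 ± 37.1 at 16-20 somites (SD, n = 3 each), a log2 difference of 0.04 ± 0.25 (SE) with an adjusted p of 0.969 in limma. Its 95% interval, -0.52 to 0.59, leaves room for a difference in either direction, and the sign was negative with quantile normalization, at -0.03. On 21-25 somites replicate 1 the 18 general mesenchyme genes had a summed signal of 35994.4, against 18578.5 to 25469.2 on the other 8 arrays, and the part of this in the Tbx3 value was not tested. The second probe set, 1439567_at, had 55 in 16-20 somites replicate 1 and 6 to 30.8 on the other 8 arrays.

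Eomes had the smallest unadjusted p of the T-box genes in the widest comparison. Probe set 1435172_at had signals of 29.2, 61 and 117.7 at 16-20 somites, 164.5, 100.4 and 114.6 at 21-25 somites, and 135, 208.5 and 157 at 26-30 somites. The last stage lay above all of 16-20 somites, and 21-25 somites overlapped with both. The mean was 167 ± 37.7 at 26-30 and 69.3 ± 44.8 at 16-20 somites (SD, n = 3 each), a log2 difference of 1.11 ± 0.34 (SE; 95% interval 0.36 to 1.85). Limma gave an unadjusted p of 0.00715, which ranked 261 among 14266, and an adjusted p of 0.385. The log2 difference was 0.77 without 16-20 somites replicate 1 and 1.46 without replicate 3 of that stage, and 0.67 with 4 times the pseudocount. The first step was 0.76 ± 0.34 and the second 0.34 ± 0.34, with adjusted p of 0.496 and 0.998 in limma.

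A second Eomes probe set was dim. Probe set 1426001_at had signals of 9 to 13.3 at 16-20 somites, 2.5 to 35 at 21-25 somites and 7.1 to 14.8 at 26-30 somites, with a log2 difference of 0.02 over the widest comparison. Its mean lay below the filter, and its Pearson correlation with the brighter probe set was 0.18 over 9 arrays. At signals this close to the pseudocount it carries no information on direction, which rests on 1435172_at alone.

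Tbx6, the factor of presomitic mesoderm, overlapped between all stages. Probe set 1449868_at had signals of 57, 99.7 and 97.2 at 16-20 somites, 111.8, 112.8 and 78.3 at 21-25 somites, and 65.1, 121.5 and 42.9 at 26-30 somites. The highest and lowest of all 9 were both at 26-30 somites. The log2 difference of 26-30 against 16-20 somites was -0.16 ± 0.32 (SE, n = 3 each; 95% interval -0.86 to 0.54; adjusted p 0.882 in limma), and it was 0.09 without 26-30 somites replicate 3, -0.46 without replicate 2 of that stage and -0.66 without the narrow-range arrays. Of 13 presomitic and somitic genes on the array 8 passed the filter, 4 with a positive and 4 with a negative difference, and a summed signal of 1214 to 1436.4 at 26-30 and 1059.3 to 1301.6 at 16-20 somites. The widest was Dll3, a Notch ligand of presomitic mesoderm, at 1.12 ± 0.34 with an adjusted p of 0.385 in limma.

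**Figure D2:**
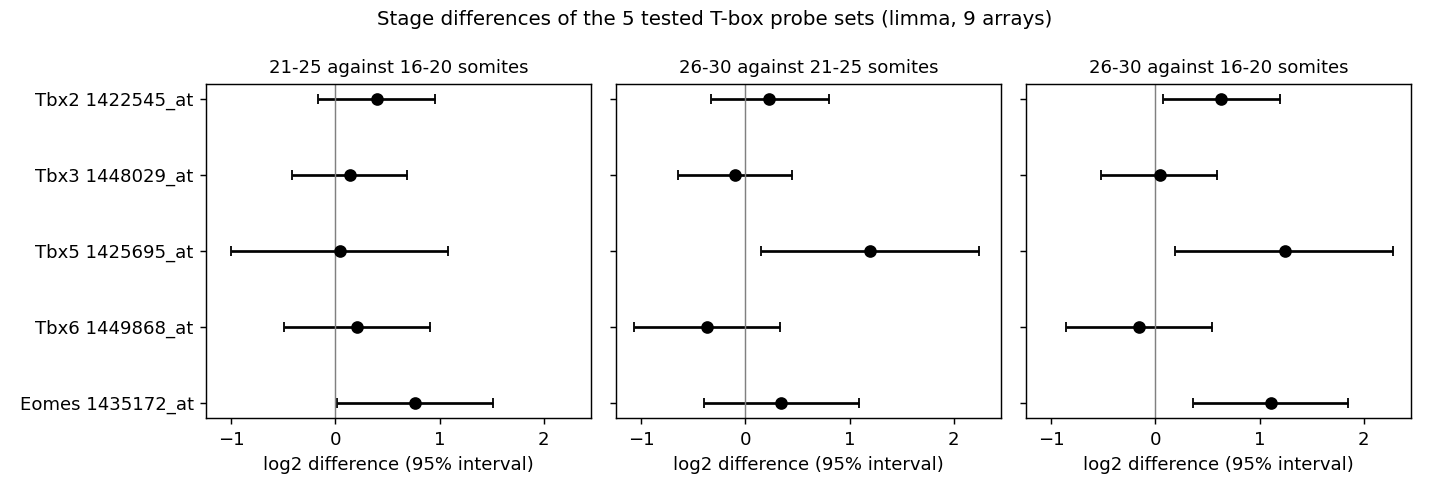
Log2 differences of the 5 tested T-box probe sets with 95% intervals from limma, for both steps and the whole interval (x axis). The intervals of Tbx5, Eomes and Tbx2 lie above 0 for 26-30 against 16-20 somites, and 0 of the 5 passed after adjustment over 14266 probe sets in any comparison.

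In the first step, of 21-25 with 16-20 somites, 0 of the 9 T-box probe sets had its later arrays wholly above the earlier ones, against 6.40% of the 14266 tested and 5.55% of the 20380 before the filter, and 0 of 5 passed in limma, where 0% of all passed. At an unadjusted p under 0.05 it was 1 of 5, Eomes, beside 9.99% of all. In the second, of 26-30 with 21-25 somites, 2 probe sets, of Tbx5 and Tbx2, were wholly above, against 4.50% of all tested and 4.27% before the filter. Again 0 of 5 passed in limma, with 0% of all passing, and 1 of 5, Tbx5, had an unadjusted p under 0.05, beside 3.69% of all. The second minus the first step gave 0 calls among the 5 and 0% over all, and 0 of 5 had an unadjusted p under 0.05, beside 5.49% of all. For any difference between the 3 stages (moderated F test of limma) the adjusted p of the 5 was between 0.525 for Eomes and 0.962 for Tbx3, with 0% of all called. At an unadjusted p under 0.05 it was 2 of 5, Eomes and Tbx5, beside 8.62% of all.

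**Figure D3:**
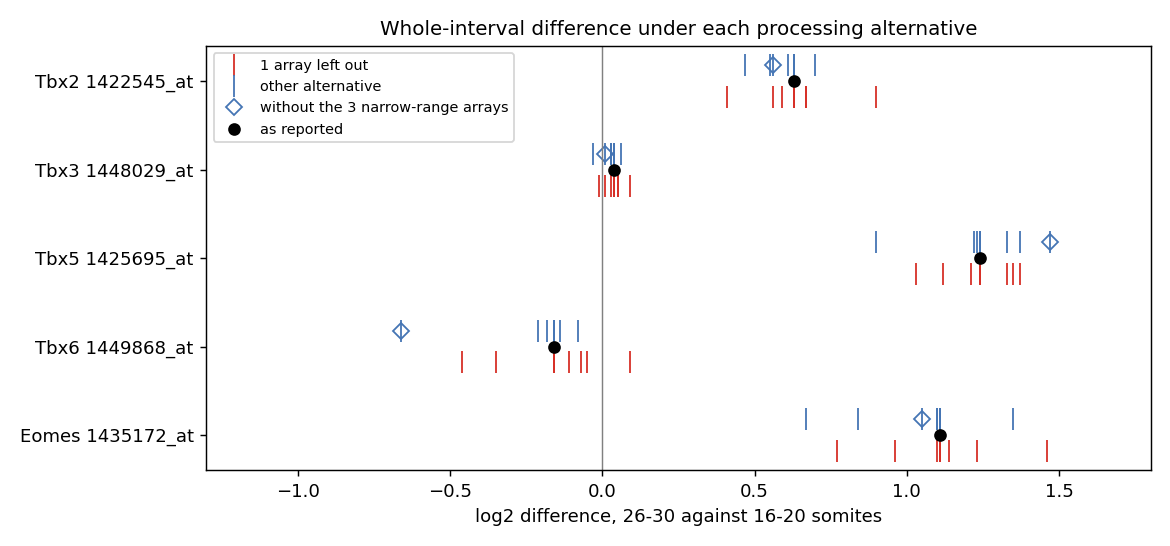
Log2 difference of 26-30 against 16-20 somites (x axis) of the 5 tested T-box probe sets as reported and under each alternative, with leave-one-out fits in red. Tbx5, Eomes and Tbx2 stay above 0 in all of them, while Tbx3 and Tbx6 cross it.

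Since Tbx2, Tbx3, Tbx4 and Tbx5 are genes of mesenchyme, the connective tissue layer of the gut, each tested probe set was also set against the mean log2 value of 18 general mesenchyme genes of its own array. This relative level takes out only a shift of the list mean, and the listed genes did not move together. For 26-30 against 16-20 somites 12 were positive and 6 negative, with a median log2 difference of 0.20. For Tbx5 the relative level was -1.03, -1.40 and -0.75 at 26-30 somites, against -2.02, -2.13 and -2.56 at 16-20 somites. At 21-25 somites it was -2.32, -3.46 and -1.92. The last stage was above both others, and the difference of 26-30 against 16-20 somites was 1.18, beside 1.24 without this step. With a list mean that moved little these values had to lie close. Whether Tbx5 moved apart from the mesenchyme was not tested. Eomes kept its stages apart by little, at -2.11, -1.61 and -1.83 for 26-30 somites and -3.54, -3.04 and -2.12 for 16-20 somites. Tbx2 no longer kept them apart, at -1.32 to -1.04 for 26-30 and -2.31 to -1.15 for 16-20 somites. Tbx3 had a difference of -0.02 and Tbx6 of -0.21, both with overlapping arrays.

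**Figure D4:**
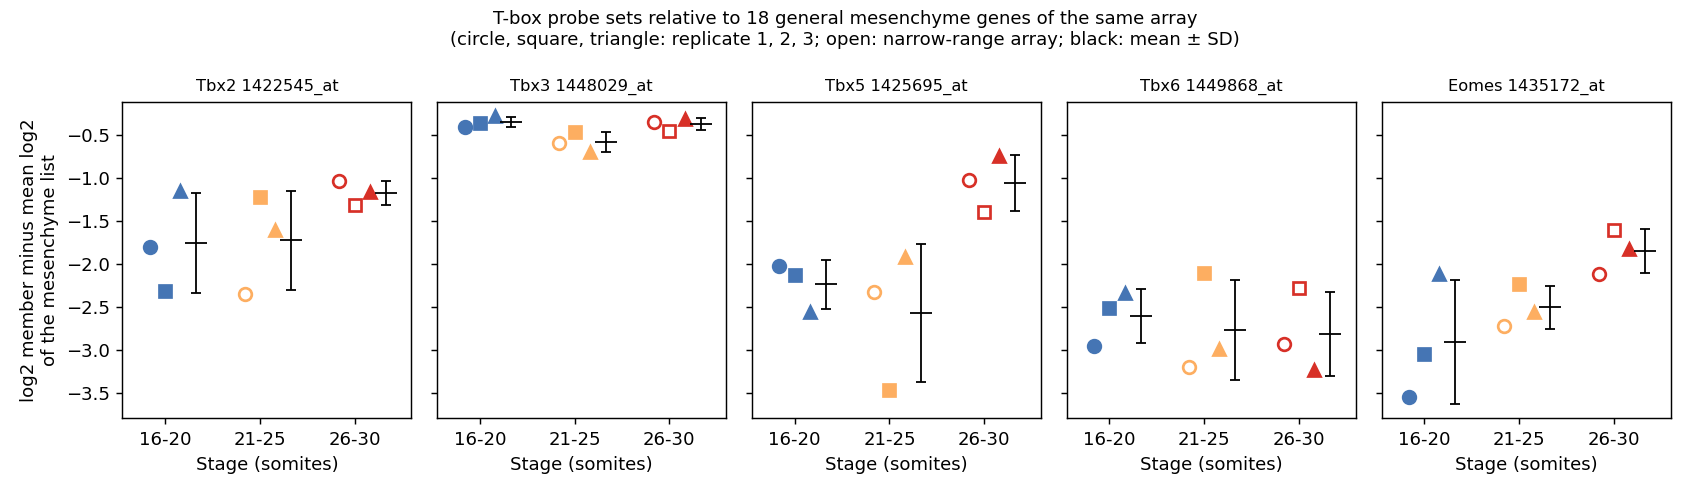
Log2 value of each tested T-box probe set minus the mean log2 value of 18 general mesenchyme genes on the same array (y axis), by stage, with mean and SD; open symbols are narrow-range arrays. Tbx5 at 26-30 somites lies above both earlier stages, and Tbx2 overlaps with them.

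Tbx5 is also a gene of heart muscle, which the dissection was meant to leave out. Of 21 cardiac muscle genes on the array 18 passed the filter, with a summed signal of 3508.8 to 8970.8 at 26-30 and 4452.4 to 21380.1 at 16-20 somites, and a median log2 difference of -0.41, or 0.00 without 16-20 somites replicate 2. The cardiac sum was highest in 16-20 somites replicate 2, whose Tbx5 signal was 136.7, beside 132.5 in replicate 1, which had the lowest cardiac sum of its stage. At 26-30 somites the highest Tbx5 signal, in replicate 3, went with a cardiac sum of 5121.7, between those of the other replicates. The lowest Tbx5 signal of that stage, 246.2 in replicate 2, went with its lowest cardiac sum, 3508.8. The part of heart tissue in the Tbx5 values was not tested. Without 16-20 somites replicate 2 the Tbx5 log2 difference was 1.35. No signal of the table is 0, so that no marker was listed at 0.

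The other T-box genes of the array gave a comparison within the family. Of 8 with a probe set of their own 5 passed the filter, and by the brightest probe set of each all 5 had negative log2 differences of 26-30 against 16-20 somites, with a median of -0.17. Without the narrow-range arrays 3 of the 5 were positive with a median of 0.07, and without 16-20 somites replicate 2 the split was 2 positive and 3 negative with a median of -0.07. Tbx1, a factor of the pharynx, had 252 ± 39.0 at 26-30 and 392 ± 86.1 at 16-20 somites (SD, n = 3 each), a log2 difference of -0.58 ± 0.23 and an adjusted p of 0.435 in limma. Its later arrays lay wholly below the earlier ones, as did those of Tbx18. These were 2 of the 5, beside 9.59% of all tested. Tbx18, known in mesothelium and the sinus horns of the heart, gave -0.40 ± 0.27, Tbx20, a heart factor, -0.17 ± 0.24, and Mga, a large protein with a T-box and a second DNA-binding domain, -0.14 ± 0.28. Tbx19, a pituitary factor, gave -0.04 ± 0.25, and its second tested probe set 0.61 ± 0.49, so its probe sets disagree in sign. None of these passed in limma, with adjusted p from 0.435 to 0.966. Tbx15, Tbr1 and Tbx21 lay below the filter.

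**Figure D5:**
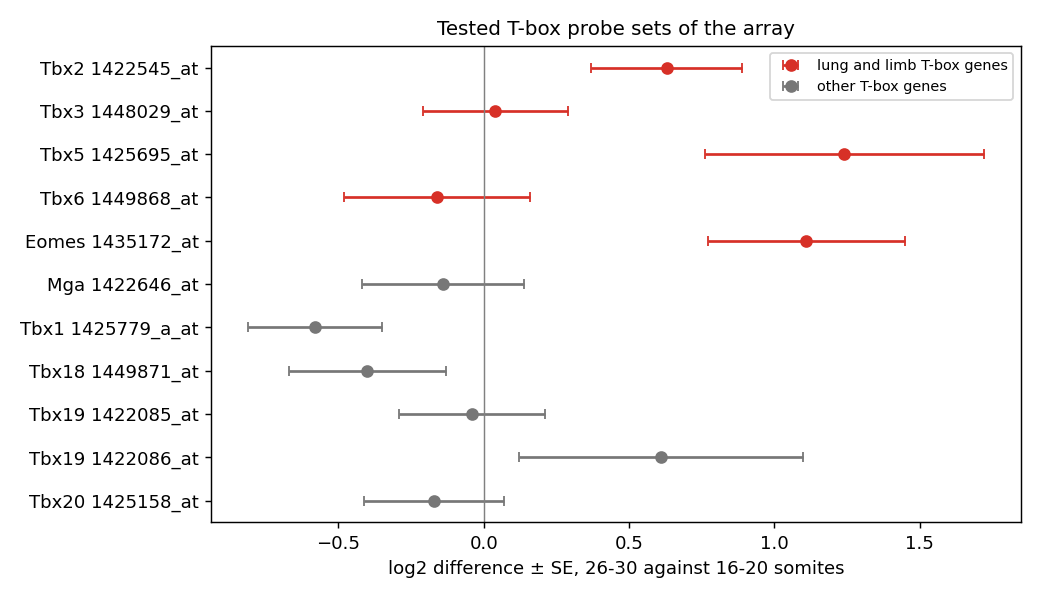
Log2 difference of 26-30 against 16-20 somites with its SE (x axis) for the 5 tested probe sets of the lung and limb T-box genes (red) and the 6 of other T-box genes (grey). Tbx5 and Eomes have the largest positive differences and Tbx1 the most negative one.

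Genes that act with these factors were counted from lists. These lists were chosen with earlier results of these data known, so their counts are a description and not a test. Of 22 lung mesenchyme and lung bud genes 16 passed the filter, of which 15 had a positive log2 difference of 26-30 against 16-20 somites with a median of 0.42, against 51.6% positive and a median of 0.02 over all tested. In 7 of the 16 the later arrays lay wholly above the earlier ones, beside the 10.9% of tested probe sets given above, and 0 passed in limma. Counted over all tested probe sets of these genes, 21 of 25 were positive with a median of 0.30. Of these 25, 9 lay wholly above and 1 wholly below. Without 16-20 somites replicate 2 the positive count was 13 of 16, and without the narrow-range arrays 15 of 16. Hoxa5, a homeobox gene of lung mesenchyme, had 1.31 ± 0.44, Rspo2, an R-spondin that strengthens WNT signals, 1.21 ± 0.44, and Aldh1a2, which makes retinoic acid, 1.05 ± 0.40, with adjusted p of 0.401, 0.416 and 0.423 in limma. Fgf10 and Wnt2, signals placed under Tbx4 and Tbx5 in mouse lung, had log2 differences of 0.09 ± 0.29 and -0.14 ± 0.23, and the Fgf10 probe set lay at the filter level, with a mean log2 value of 6.30. Wnt2 was not flat between these stages. Its mean was 1130 ± 252, 670 ± 21.8 and 1010 ± 114 (SD) at the successive stages, with steps of -0.71 and 0.57. In limma 0 genes of this list passed in either step.

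The list of candidate Tbx2 and Tbx3 target genes had 9 of 13 above the filter, 7 with a positive difference and a median of 0.32, which became 3 of 9 and -0.06 without the narrow-range arrays and 7 of 9 and 0.11 without 16-20 somites replicate 2. The widest was Cdkn1a, the cell cycle inhibitor that Tbx2 and Tbx3 are known to repress, with 485 ± 67.3 at 26-30 and 331 ± 27.1 at 16-20 somites (SD, n = 3 each), a log2 difference of 0.51 ± 0.21 and an adjusted p of 0.432 in limma. Its later arrays lay wholly above the earlier ones, as in no other of the 9, a share near the 10.9% of all tested probe sets. Of 17 limb field genes 11 passed the filter, 7 positive and 4 negative, with a median of 0.05, or -0.06 without the narrow-range arrays and 0.18 without 16-20 somites replicate 2, and 0 of these passed in limma. Pitx1, the hindlimb factor that acts with Tbx4, had a log2 difference of -0.73 ± 0.32, Grem1, a BMP antagonist, -0.72 ± 0.25, and Lhx9, a LIM homeodomain factor, 0.85 ± 0.43. Hand2 and Fgf8, further genes of the limb bud, were below the filter, with highest signals of 15.5 and 5.4.

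The remaining lists were markers of tissue that a dissected foregut could hold, and in each 0 genes passed in limma. For 26-30 against 16-20 somites the median log2 difference was 0.20 for general mesenchyme (18 of 19 tested), -0.08 for foregut epithelium (15 of 17), -0.11 for primitive streak (5 of 11) and -0.25 for mesothelium and septum transversum (8 of 11). It was 0.21 for neural crest (6 of 9), 0.15 for endothelium (8 of 10), -0.05 for primitive erythroid cells (8 of 8), -1.17 for hepatic genes (10 of 15), and -0.02 for presomitic and somitic mesoderm. Several medians rested on single arrays. Without 16-20 somites replicate 2 they were -0.38 for hepatic genes, -0.08 for mesothelium, -0.06 for primitive streak, -0.02 for foregut epithelium, 0.24 for endothelium and 0.03 for presomitic and somitic mesoderm. Without the narrow-range arrays they were 0.04 for general mesenchyme, 0.52 for erythroid cells, -0.01 for endothelium, -0.10 for mesothelium and 0.00 for presomitic and somitic mesoderm. The primitive streak list, in which Eomes acts at gastrulation, had a summed signal of 897.5 to 1086.8 at 26-30 and 919.4 to 1105 at 16-20 somites, which overlapped.

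The genes most alike each tested T-box probe set were found by the Pearson correlation of log2 values over the 9 arrays, whose points share array effects and stage. For Tbx5 these were Socs2, a suppressor of cytokine signalling (r = 0.96), Ctbp2, a transcriptional corepressor (0.95), and Exoc4 of the exocyst (0.95). For Eomes they were Wnt5b, a WNT ligand (0.98), Carm1, an arginine methyltransferase (0.95), and Zfp24 (0.94). For Tbx2 they were 1700094D03Rik (0.95), Oxct1, an enzyme of ketone body use (0.93), and Rab21, a GTPase of endosomes (0.93). For Tbx3 they were Taf4, a subunit of TFIID (0.97), Epn2, an endocytic adaptor (0.94), and Pdk1 (0.94). For Tbx6 they were Map3k21 (0.96), Sgpp1 (0.95) and Slc41a1, a magnesium transporter (0.93). With 14266 probe sets and 9 arrays, correlations of this size are found for many genes, and they are given as a description.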

How the data were processed

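RNA of 9 pools of mouse mid-foregut was measured on 1 Affymetrix array each; per the labels' protocols, the RNA was amplified linearly before labelling. The deposited values are intensity on a linear scale that the authors obtained with MAS5, as the submitters' processing notes say; neither its version nor its scaling target is named there. The number of arrays limits the precision. Array means after trimming 2% at each end were 500.2 to 500.3, and array medians lay within 0.36 log2, so values were used as deposited.

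Among the table's 22690 probe sets 64 were controls, 20380 had 1 gene symbol in the platform annotation, 691 several and 1555 none. Only those with 1 symbol were used. Values were taken to log2 after adding 26.1, the 20th percentile, and 14266 probe sets with a mean at or above the 30th percentile were fitted in 1 model of 3 stage means (lmFit, then eBayes with a trend, of limma 3.58.1 in R 4.3.3). Tests were two-sided with Benjamini-Hochberg adjustment over all probe sets tested at 0.05. In 10 sets simulated for 26-30 against 16-20 somites on the 14266 probe sets, with 200 changed in each, the fit recovered 24.6% of log2 changes of 1, 63.0% of 1.5, 81.0% of 2 and 95.2% of 3, and made a mean of 6.40 false calls per set. The simulated noise was normal and drawn separately for each probe set, without effects shared by an array, and each set mixed these sizes. The real arrays share such effects, so the shares recovered can be too high for them. Lists used the brightest probe set of a gene, except where all probe sets are named. The 6 members and all lists were chosen with earlier results of these data known. All member probe sets are named, the 3 genes most alike each tested member, tested T-box relatives, and up to 3 genes with the widest difference of a list; Fgf10, Wnt2, Hand2, Fgf8, Nkx2-1, Shh, Foxa1 and Foxa2 were added after their values were seen.

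Alternatives were quantile normalization, median centring, the pseudocount at 6.52 or at 104, the filter dropped or raised to the 50th percentile, 1 probe set per gene, eBayes without a trend, array weights, a replicate block, only the 6 arrays compared, each array left out, and all 3 narrow-range arrays left out; list counts and separate arrays without 16-20 somites replicate 2 or the narrow-range arrays were added after seeing the data. Among the 36 pairs of arrays, 0 were identical.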

Additional observations from a re-analysis of the deposited data

How the results depend on the processing

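For 26-30 against 16-20 somites the differences of Tbx5, Eomes and Tbx2 were positive under every alternative run, with ranges of 0.90 to 1.47, 0.67 to 1.46 and 0.41 to 0.90; the filter at the 50th percentile left out Eomes and Tbx6. The count of T-box probe sets called was 0 in each comparison and alternative run, single arrays left out included (0 to 0), except that array weights gave 1 for 26-30 against 16-20 somites, Tbx5, where the cause was not tested; the lowest weight was 0.374, for 21-25 somites replicate 2, and the highest 3.02, for 26-30 somites replicate 1. Over all probe sets, array weights gave 597 calls in limma against 0, and 1 against 0 for 26-30 against 21-25 somites. Leaving out 21-25 somites replicate 3 gave 3 calls in the first step and 1 for the second minus the first step, and leaving out 26-30 somites replicate 3 gave 1 over the whole interval. At an unadjusted p under 0.05 the whole-interval count was 472 without the narrow-range arrays, 3500 with array weights, 2246 with only the 6 arrays compared, 967 with 1 probe set per gene and 740 to 1954 without single arrays, against 1485; the first step had 766 without the narrow-range arrays and 925 to 1958 without single arrays, against 1425. The second step had 2030 with array weights, 280 without the narrow-range arrays and 304 to 1222 without single arrays, against 527, and the second minus the first step 1294, 370 and up to 1233, against 783.

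Signs turned for small differences. In the first step Tbx5 was -0.04 with the pseudocount at 6.52, -0.36 without the narrow-range arrays and -0.36 to 0.75 without single arrays, Tbx6 was -0.02 with array weights, and Tbx3 was -0.14 without the narrow-range arrays and -0.14 to 0.33 without single arrays. In the second step Tbx3 was 0.01 with array weights, 0.15 without the narrow-range arrays and -0.30 to 0.18 without single arrays. Over the whole interval Tbx3 was -0.03 with quantile normalization and -0.01 to 0.09 without single arrays, and Tbx6 -0.46 to 0.09; relative to the median of the mesenchyme list in place of its mean, Tbx3 had 0.07. The cause of these turns was not tested.

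Deviations of arrays with the same replicate number correlated at -0.26 to 0.23, within the -0.47 to 0.39 of arrays with different numbers. Whether the number pairs the arrays was not tested. With the number as a block, Tbx5 had an adjusted p of 0.388, Eomes 0.379 and Tbx2 0.444 in limma over the whole interval, and 0 T-box probe sets passed in any comparison. Dim probe sets, Tbx4 among them, have signals near the pseudocount of 26.1, so their differences are compressed.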
